A study of Mus musculus with 8 samples.

Results

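Hepatic stellate cells isolated from mice with 4 weeks of carbon tetrachloride (CCl4) injury were set against quiescent stellate cells of healthy mice, across all genes. The members were the 4 arrays whose labels name 4 weeks of CCl4 or quiescent cells, 2 of each, out of 8 arrays in the series. Cells of every group came from mice of the inbred strain BALB/c. The quiescent cells came from healthy livers, the 4-week cells from fibrotic livers, and RNA was taken from both without seeding them on a dish. Used beside them were 2 arrays of unseeded cells after 2 weeks of CCl4 and 2 arrays of quiescent cells after 10 days on plastic. A treatment protocol common to all samples names valproic acid, a histone deacetylase inhibitor, after seeding. It cannot bear on cells that were never seeded, and the labels leave unsettled whether it was given in the 10-day cultures. The dose of CCl4, the age and sex of the mice and the number of animals behind each array are not given in the sources used here. No label states separate animals within a group, so a p-value here reflects the spread of these arrays alone, which may be technical. The series asks how the Hippo pathway effector YAP bears on stellate cell activation.

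Stellate cells lie between hepatocytes and the sinusoidal endothelium, where in the healthy liver they store vitamin A as retinyl esters in lipid droplets. After injury they become contractile, matrix-producing myofibroblasts, the main source of scar collagen in toxic liver fibrosis. CCl4 is made toxic by cytochrome P450 enzymes of the hepatocytes around the central vein, and repeated dosing leads to fibrous septa. YAP and its paralogue TAZ are transcriptional coactivators that the Hippo kinases hold out of the nucleus, and they act with the TEAD DNA-binding proteins.

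Levels are the authors' log2 RMA values, a scale on which 1 unit is a 2-fold difference, given as quiescent replicates 1 and 2 and then 4-week replicates 1 and 2. Changes are log2 differences, 4-week minus quiescent, ± standard error from limma with Benjamini-Hochberg adjustment over 22180 genes. A gene is said to rise or fall where its adjusted p was under 0.05. On the log2 scale the 4-week pair differed over 2-fold at 56 genes and the quiescent pair at 565, and quiescent against 4-week arrays at 1122 to 1493. Beside a count of 0 in a gene list stands, as unadjusted, the count at an unadjusted p under 0.05 in that direction. As a guide to background, 95% of 1394 olfactory and vomeronasal receptor genes lay at or under 4.75.

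The cells of both groups carried transcripts known from the stellate lineage at high levels, though not all of these held their level. Lrat, the enzyme that makes retinyl esters, stood at 10.95 and 11.29, then 11.04 and 10.97 (-0.11 ± 0.38, adjusted p = 0.926). Reln, which encodes reelin, stood at 11.57 and 11.85, then 10.90 and 10.94 (-0.79 ± 0.26, adjusted p = 0.118). Desmin, from Des, stood at 9.67 and 9.83, then 10.08 and 10.05 (0.31 ± 0.13, adjusted p = 0.225), and the lineage transcription factor Tcf21 at 10.90 and 11.28, then 11.10 and 10.91 (-0.09 ± 0.24, adjusted p = 0.908). None of these genes passed the threshold, but other stellate markers did. As given below, Lhx2 and Ngfr fell and Pdgfrb rose, and of 26 markers of the quiescent stellate cell 15 fell and 1 rose. Transcripts of other liver cells were also present and moved with the groups. The median of 27 hepatocyte markers stood at 9.22 and 8.14 on the quiescent and 6.04 and 5.70 on the 4-week arrays. That of 32 sinusoidal endothelial markers stood at 9.29 and 8.06, then 6.26 and 6.51, and that of 28 Kupffer cell and macrophage markers at 7.64 and 8.46, then 6.52 and 6.55. In RNA of a whole preparation, fewer cells of a type and less RNA per cell cannot be told apart. The part of these transcripts in the changes given here was not tested.

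After 4 weeks of CCl4, 896 genes rose and 1036 fell, which is 4.04% and 4.67% of those tested. On all 1932 called genes both 4-week arrays lay on the same side of both quiescent arrays. Among all 22180 genes tested, both 4-week arrays lay above both quiescent arrays at 5325 and below both at 5468. This separation is thus common, and a call favours it. The smallest called changes were 0.51 upward and -0.50 downward, and the median change over all genes was -0.0019. With at least a 2-fold change required as well, 410 genes rose (1.85%) and 542 fell (2.44%). Over 8-fold, 31 rose and 44 fell. The largest rises included Tnc, Acta2, Ch25h and Rgs16, and 15 of the 20 largest falls stood in the lists of hepatocyte, endothelial or macrophage genes. With 4-week replicate 1 left out, 317 rose and 335 fell, and without 4-week replicate 2, 350 and 377. Still called in each of the 8 fits that left out 1 array were 250 of the rises and 260 of the falls. A single remaining 4-week array is there assumed to vary as the other groups do.

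**Figure D1:**
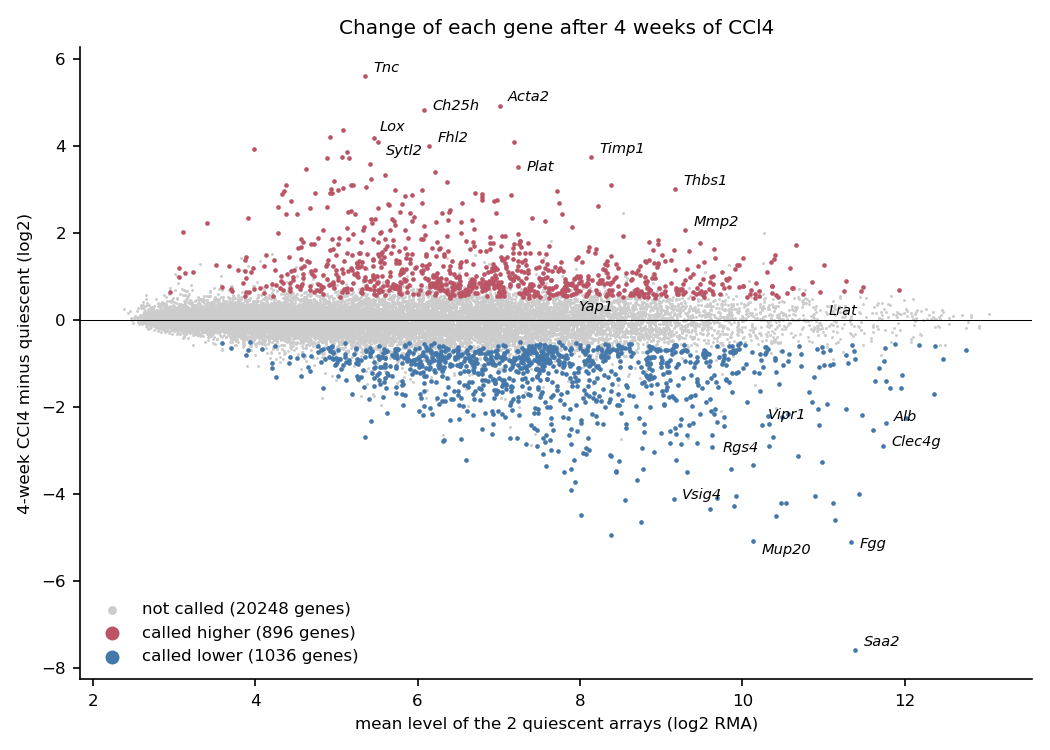
Each point is a gene, with its mean over the 2 quiescent arrays (log2 RMA) on the x axis and its change after 4 weeks of CCl4 (log2) on the y axis, red for the 896 genes that rose and blue for the 1036 that fell. The largest falls lie at high quiescent levels and many of the largest rises start near 5, while Yap1 and Lrat lie near 0.

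Some of the largest rises lay outside the matrix and muscle genes. Ch25h, an enzyme that hydroxylates cholesterol, stood at 6.09 and 6.07, then 10.70 and 11.12. It rose by 4.83 ± 0.22 (28.4-fold, adjusted p = 1.91e-05). Sytl2, a vesicle-docking protein, went from 5.40 and 5.62 to 9.58 and 9.62 (4.09 ± 0.23, adjusted p = 4.05e-05). Both quiescent arrays of Sytl2 lay less than 1 unit above the guide to background, and the 4-week arrays lay close to each other. Chst11, a sulfotransferase of chondroitin chains, began below the guide at 3.89 and 4.08 and reached 7.87 and 7.95 (3.92 ± 0.18, adjusted p = 1.91e-05). Pla1a, a phosphatidylserine-specific phospholipase, rose from 5.46 and 4.67 to 8.84 and 8.81 (3.76 ± 0.25, adjusted p = 0.000115). The large scaffold gene Ahnak2 rose from 4.63 and 5.13 to 8.77 and 8.47 (3.73 ± 0.21, adjusted p = 4.05e-05). Gprc5b, an orphan receptor, went from 4.95 and 5.36 to 8.74 and 9.0 (3.72 ± 0.20, adjusted p = 4.05e-05) and the small GTPase gene Rasl11b from 5.78 and 5.05 to 9.05 and 8.96 (3.59 ± 0.23, adjusted p = 9.86e-05). Dimmer second probe sets gave a smaller rise for Ahnak2 (1.39 ± 0.20, adjusted p = 0.00376) and none past the threshold for Ch25h (0.47 ± 0.20, adjusted p = 0.236). Podoplanin, from Pdpn, a mucin-type membrane glycoprotein, rose from 4.89 and 5.05 to 8.20 and 8.15 (3.20 ± 0.19, adjusted p = 5.55e-05).

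Genes known to mark activated stellate cells rose nearly as a body. Of 26 measured, 22 rose and 0 (0 unadjusted) fell, with a median change of 1.56 against -0.0019 over all genes. Of its members 23 also stand in other lists. Tenascin C, a glycoprotein of wound matrix, had the largest rise of any gene tested. Tnc stood at 4.95 and 5.76 on the quiescent arrays and 10.96 and 10.98 on the 4-week arrays, a rise of 5.62 ± 0.25 (49.1-fold, adjusted p = 1.91e-05). Both 4-week values lay above 10 and both quiescent values below 6. Timp1, an inhibitor of matrix metalloproteinases, stood at 8.56 and 7.71, then 11.90 and 11.88 (3.75 ± 0.26, adjusted p = 0.000142). The calcium-binding protein gene S100a6 rose from 10.53 and 10.78 to 12.31 and 12.47 (1.74 ± 0.15, adjusted p = 0.000343). Members that did not pass were Mgp (1.31 ± 0.44, adjusted p = 0.117), Tgfb1 (-0.19 ± 0.18, adjusted p = 0.669), Grem1 (-0.04 ± 0.15, adjusted p = 0.94) and Islr (-0.06 ± 0.34, adjusted p = 0.962). The count of rises was 12 without 4-week replicate 1, 14 without 4-week replicate 2.

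**Figure D2:**
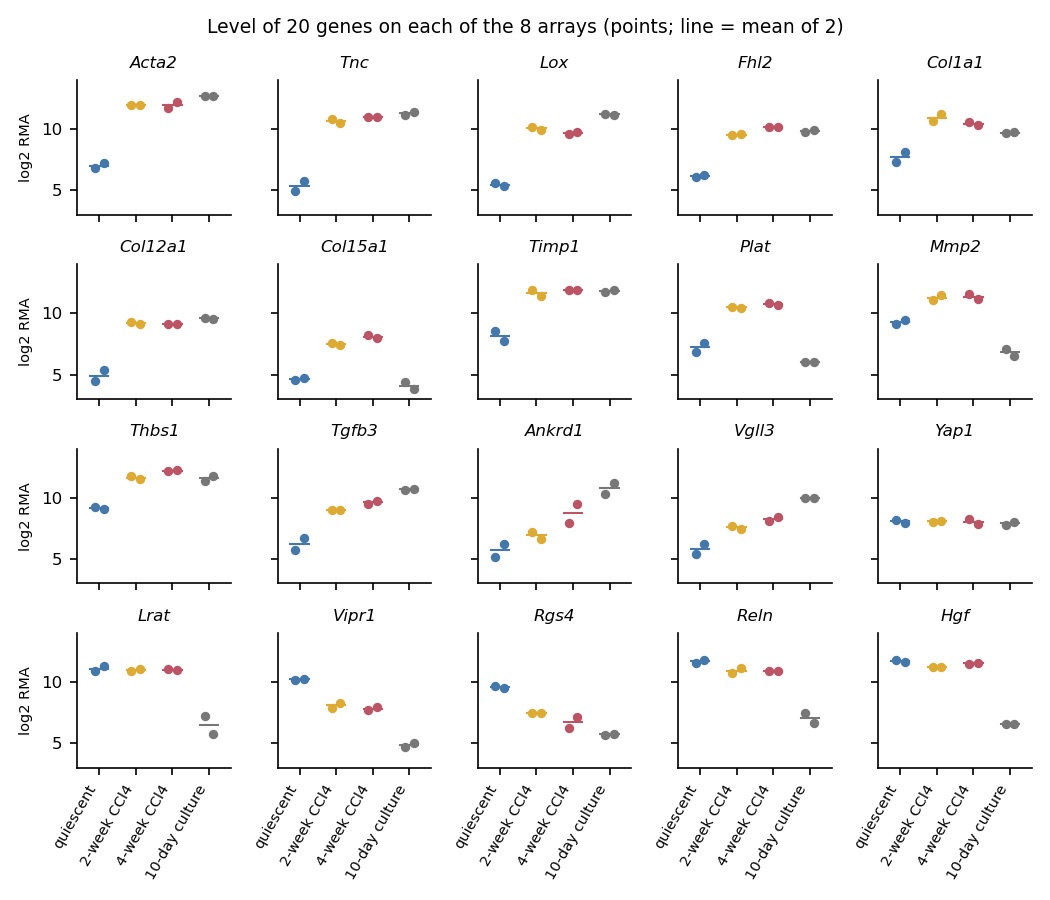
Levels (log2 RMA, y axis) of 20 genes on each of the 8 arrays, as points by group, with lines at the mean of 2. Acta2, Tnc and Lox are high on every CCl4 and cultured array, whereas Vipr1 and Rgs4 fall after CCl4 and further in culture, and Lrat, Reln and Yap1 lie within 1 unit of their quiescent level after CCl4.

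Smooth muscle contraction genes rose in good part. Of 23 measured, 12 rose and 0 (2 unadjusted) fell, with a median change of 1.27. Acta2, the smooth muscle actin that defines the myofibroblast, stood at 6.78 and 7.24, then 11.70 and 12.18. It rose by 4.93 ± 0.20 (30.5-fold, adjusted p = 1.81e-05), and its lowest 4-week value exceeded its highest quiescent value by more than 4 units. Tropomyosins lie along the actin filament, and Tpm1 rose from 7.32 and 7.82 to 9.82 and 9.89 (2.28 ± 0.18, adjusted p = 0.000226) while Tpm2 rose from 5.92 and 7.14 to 8.66 and 8.92 (2.26 ± 0.34, adjusted p = 0.0046). Lmod1, which nucleates actin in smooth muscle, went from 5.21 and 5.19 to 6.84 and 7.52 (1.98 ± 0.21, adjusted p = 0.000873). The smooth muscle myosin heavy chain Myh11 began at 5.78 and 5.76 and reached 7.05 and 7.65 (1.58 ± 0.19, adjusted p = 0.00189). Calponin, from Cnn1, rose from 4.35 and 4.71 to 5.92 and 6.45 (1.65 ± 0.21, adjusted p = 0.00194). Actg2, the enteric smooth muscle actin, lay at 5.82 and 5.51 before and 7.10 and 8.38 after (2.08 ± 0.35, adjusted p = 0.00775), with replicate 2 above replicate 1 by over 1 unit. Tagln, an actin-binding protein, rose as well (3.11 ± 0.54, adjusted p = 0.00917), although its quiescent arrays lay at 7.32 and 9.44. Caldesmon, from Cald1, rose by 1.17 ± 0.19 and the LIM protein gene Pdlim3 by 1.47 ± 0.26. Among members that did not pass, Myl9 stood at 6.76 and 10.30, then 10.73 and 11.25 (2.46 ± 0.87, adjusted p = 0.138), and Myocd, the coactivator of the smooth muscle programme, at 4.36 and 4.49, then 4.38 and 4.58 (0.06 ± 0.16, adjusted p = 0.902). The rises numbered 7 without either 4-week array. Tagln (adjusted p = 0.0553 and 0.0836), Cald1 (0.0558 and 0.0537) and Pdlim3 (0.0991 and 0.0515) missed the threshold without either 4-week array.

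TEAD proteins, the partners of YAP, are known to bind CATTCC, and serum response factor binds the CArG box. The CArG box was searched as a 10-letter run of CC, 6 letters that are each A or T, and GG, with no mismatch. Both strands of the 250 bases before each gene's start were searched in RefSeq sequence of build GRCm38.p6. CATTCC lay in 13.4% of the 16990 tested genes with such a window, in 6 of the 9 contractile genes that rose and had one (66.7%) and in 8 of the 19 measured (42.1%). The CArG box lay in 1.49% of the tested genes, in 3 of the 19 measured contractile genes (15.8%) and 0 of the 9 that rose. Of actin cytoskeleton genes with a window, it lay in 3 of the 28 measured (10.7%) and 2 of the 15 that rose (13.3%), and CATTCC in 8 (28.6%) and 5 (33.3%). Of YAP/TAZ target genes, CATTCC lay in 6 of the 14 measured ones with a window (42.9%) and 2 of the 4 that rose (50%), and the CArG box in 0 of the 14. These counts were not tested. A match is a run of letters and not a binding site. Runs 1 letter off the CArG pattern were not counted, such as ccctatatgg and ccttgtttgg in the Acta2 window. A count of 0 therefore does not show that a gene lacks such a box. The windows of the most strongly raised contractile gene, of a YAP target and of a gene with a CArG box are shown, 5′ to 3′ on the strand of the gene, with capitals at the match.
Acta2, chr19:34255374-34255623, minus strand: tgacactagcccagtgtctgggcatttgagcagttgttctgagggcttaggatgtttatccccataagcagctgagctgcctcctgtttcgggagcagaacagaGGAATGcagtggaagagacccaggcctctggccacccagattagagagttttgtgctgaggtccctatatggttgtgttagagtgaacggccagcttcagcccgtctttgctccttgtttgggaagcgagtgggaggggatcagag
Ankrd1, chr19:36119845-36120094, minus strand: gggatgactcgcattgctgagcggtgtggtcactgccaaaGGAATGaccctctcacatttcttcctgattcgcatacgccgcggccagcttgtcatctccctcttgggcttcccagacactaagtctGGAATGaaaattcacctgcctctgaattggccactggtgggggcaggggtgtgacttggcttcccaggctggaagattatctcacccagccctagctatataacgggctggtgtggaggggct
Fhl2, chr1:43196762-43197011, minus strand: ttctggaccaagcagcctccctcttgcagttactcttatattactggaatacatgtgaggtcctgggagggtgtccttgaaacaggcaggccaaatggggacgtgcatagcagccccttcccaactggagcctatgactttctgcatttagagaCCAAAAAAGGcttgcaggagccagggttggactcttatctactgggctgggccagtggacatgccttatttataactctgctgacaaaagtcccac
The capitals in Acta2 begin 146 bases before the start and read CATTCC on the other strand, those in Ankrd1 begin 210 and 123 bases before it, and those in Fhl2 mark a CArG box 96 bases before 1 of its 2 starts.

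The wider actin cytoskeleton moved the same way. Of 32 genes of the cytoskeleton and focal adhesions, 15 rose and 0 (0 unadjusted) fell, with a median change of 0.57. Fhl2, a LIM protein that travels between focal adhesions and the nucleus, stood at 6.05 and 6.22, then 10.15 and 10.14. Its rise of 4.0 ± 0.14 was 16-fold and had the smallest adjusted p of the list (1.25e-05). Alpha-actinin 1, which crosslinks stress fibres, rose from 8.06 and 8.99 to 10.34 and 10.57 (Actn1, 1.93 ± 0.27, adjusted p = 0.00311). The nonmuscle myosins Myh10 (1.79 ± 0.21, adjusted p = 0.0014) and Myh9 (1.36 ± 0.20, adjusted p = 0.00403) rose, as did filamin C, from Flnc (1.35 ± 0.15, adjusted p = 0.00108). Lpp, a zyxin-family adhesion protein, rose by 1.25 ± 0.18 (adjusted p = 0.00412). Filamin A, from Flna, went from 8.35 and 9.55 to 10.77 and 10.81 (1.84 ± 0.32, adjusted p = 0.00895), and vinculin, from Vcl, from 9.52 and 10.30 to 11.01 and 11.15 (1.17 ± 0.24, adjusted p = 0.0174). The cytoplasmic actins Actb (0.24 ± 0.19, adjusted p = 0.582) and Actg1 (0.53 ± 0.18, adjusted p = 0.122) did not pass. Rises numbered 6 without either 4-week array. Flna (adjusted p = 0.0722 and 0.0695) and Vcl (0.0922 and 0.119) did not pass without either 4-week array.

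Fibrillar collagens, the bulk of scar, rose in part. Of 11 measured, 5 rose and 0 (0 unadjusted) fell, with a median of 0.28. Col1a1 stood at 7.33 and 8.14, then 10.54 and 10.34. It rose by 2.70 ± 0.27 (6.51-fold, adjusted p = 0.000688). Its partner chain Col1a2 began near the top of the scale at 10.70 and 11.30 and reached 12.33 and 12.23 (1.28 ± 0.21, adjusted p = 0.00668), and a dimmer probe set of it gave 2.05 ± 0.24, adjusted p = 0.00178. Col3a1 had quiescent arrays far apart at 8.11 and 9.80 and 4-week arrays at 10.84 and 10.59 (1.75 ± 0.44, adjusted p = 0.0427). Type V collagen, which seeds fibrils of type I, rose through Col5a2, from 5.83 and 6.77 to 8.85 and 8.70 (2.47 ± 0.28, adjusted p = 0.00127), and Col5a1 (0.90 ± 0.18, adjusted p = 0.0184), whereas Col5a3 did not pass (0.00 ± 0.15, adjusted p = 0.994). The rises numbered 2 without 4-week replicate 1, 3 without quiescent replicate 1 or 4-week replicate 2. Of 18 other collagens, 5 rose (1 without either 4-week array, 2 without either culture array or either 2-week array, 3 without quiescent replicate 1) and 0 (0 unadjusted) fell. Col12a1, which coats fibrils under tension, went from 4.51 and 5.33 to 9.15 and 9.10 (4.21 ± 0.24, adjusted p = 4.05e-05). The type VI chain Col6a3 rose from 8.66 and 9.65 to 10.88 and 10.63 (1.60 ± 0.31, adjusted p = 0.0138), and Col14a1, another fibril-associated collagen, stood at 10.68 and 11.09, then 10.68 and 10.69 without passing (-0.20 ± 0.32, adjusted p = 0.824). Col1a2 (adjusted p = 0.0669) lost the call without 4-week replicate 1, and Col6a3 (0.116 and 0.0688) without either 4-week array. Col5a1 (adjusted p = 0.0643 to 0.111) fell short of the threshold without quiescent replicate 1 or either 4-week array, and Col3a1 (0.0504 to 0.226) without quiescent replicate 1, either culture array, either 2-week array or either 4-week array.

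Of 8 collagens of the basement membrane 4 rose and 0 fell, while of 10 laminin chains 0 rose and 1 fell. Of 22 basement membrane genes, 5 rose (3 without 4-week replicate 1) and 1 fell (0 without quiescent replicate 2 or either 4-week array). Col15a1, a basement membrane collagen, was below the guide in quiescent cells, at 4.53 and 4.72, and reached 8.20 and 8.0 (3.47 ± 0.19, adjusted p = 4.05e-05). The paired type IV chains rose together, Col4a1 from 8.67 and 9.12 to 10.46 and 10.54 (1.61 ± 0.17, adjusted p = 0.000846) and Col4a2 from 6.92 and 7.24 to 9.01 and 9.03 (1.94 ± 0.15, adjusted p = 0.000241). Perlecan, from Hspg2, rose by 0.73 ± 0.14 (adjusted p = 0.0136). The laminin chain gene Lama1 was the member that fell, from 8.33 and 8.83 to 7.03 and 7.05 (-1.54 ± 0.31, adjusted p = 0.0183). The laminins Lamb1 (0.05 ± 0.14, adjusted p = 0.915) and Lamc1 (0.33 ± 0.16, adjusted p = 0.302) and nidogen, from Nid1 (0.32 ± 0.15, adjusted p = 0.278), did not pass. Hspg2 (adjusted p = 0.0653 to 0.0958) missed the threshold without quiescent replicate 1 or either 4-week array, and Lama1 (0.0627 to 0.118) without quiescent replicate 2 or either 4-week array.

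Enzymes that process collagen rose in part, 6 of 23 (3 without 4-week replicate 1), with 1 fall. Lox, which crosslinks collagen and elastin, stood at 5.59 and 5.33, then 9.55 and 9.76. Its rise of 4.20 ± 0.16 was 18.3-fold (adjusted p = 1.47e-05). The lysyl hydroxylase gene Plod2 went from 7.85 and 8.05 to 9.35 and 9.38 (1.41 ± 0.14, adjusted p = 0.000696), and the prolyl 3-hydroxylase gene P3h1 from 8.01 and 8.18 to 9.11 and 9.09 (1.01 ± 0.14, adjusted p = 0.00294). Serpinh1, the collagen chaperone of the endoplasmic reticulum, rose by 1.15 ± 0.21 (adjusted p = 0.0123) and the crosslinking enzyme gene Loxl1 by 1.36 ± 0.24 (adjusted p = 0.0102). Colgalt2, which adds galactose to hydroxylysine, fell from 4.85 and 4.78 to 4.0 and 3.70 (-0.97 ± 0.15, adjusted p = 0.00471). The prolyl 4-hydroxylases P4ha1 (0.25 ± 0.15, adjusted p = 0.398) and P4ha2 (0.21 ± 0.16, adjusted p = 0.564) did not pass. Loxl1 (adjusted p = 0.0985) did not pass without 4-week replicate 1, and Serpinh1 (0.0935 and 0.0809) without either 4-week array.

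Matricellular glycoproteins, which tune how cells read the matrix, went both ways. Of 29 measured, 10 rose and 4 fell (1 without either 4-week array), with a median of 0.44. Thrombospondin 1, an activator of latent TGF-beta, rose from 9.25 and 9.10 to 12.15 and 12.24 (Thbs1, 3.02 ± 0.16, adjusted p = 4.05e-05). Periostin, from Postn, was already high at 10.33 and 10.27 and reached 11.44 and 11.37 (1.10 ± 0.13, adjusted p = 0.00166). The collagen-binding protein gene Aebp1 went from 6.71 and 6.88 to 9.73 and 9.51 (2.83 ± 0.15, adjusted p = 4.05e-05). Thrombospondin 2, from Thbs2, rose from 8.04 and 8.35 to 10.14 and 9.52 (1.63 ± 0.25, adjusted p = 0.0051), Cthrc1 by 1.46 ± 0.18 and the CCN-family gene Ccn4 by 1.16 ± 0.18. Fibronectin, from Fn1, rose from 10.96 and 10.74 to 11.83 and 11.63 (0.88 ± 0.15, adjusted p = 0.00818). Vtn, which encodes vitronectin, a plasma protein known from hepatocytes, fell from 10.80 and 8.91 to 6.36 and 6.49 (-3.43 ± 0.53, adjusted p = 0.00533). Ecm2 fell by 1.71 ± 0.30, Ecm1 by 0.68 ± 0.13 and Tgfbi by 0.90 ± 0.19 on the log2 scale. Sparc, known from remodelling tissue, stood at 11.34 and 11.62, then 11.81 and 11.91, and did not pass (0.38 ± 0.15, adjusted p = 0.199). Fn1 (adjusted p = 0.0822) and Vtn (0.0545) lost the call without 4-week replicate 1, and Ecm2 (0.0856) without 4-week replicate 2. Ecm1 (adjusted p = 0.0878 and 0.0847) fell short of the threshold without either 4-week array, and Tgfbi (0.062 to 0.135) without quiescent replicate 2 or either 4-week array.

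Elastic fibre genes gave 5 rises (3 without 4-week replicate 2) and 1 fall (0 without either 4-week array, 2 without either 2-week array, 3 without quiescent replicate 1) among 16. Ltbp2, a fibrillin-binding protein, rose from 5.05 and 5.22 to 8.91 and 9.11 (3.88 ± 0.17, adjusted p = 1.91e-05). The microfibril genes Mfap4, from 7.28 and 7.49 to 9.13 and 8.72 (1.54 ± 0.19, adjusted p = 0.00188), and Mfap2, from 7.12 and 7.02 to 8.38 and 8.38 (1.30 ± 0.18, adjusted p = 0.00333), also rose. Efemp1, a fibulin, fell from 11.60 and 11.93 to 10.43 and 10.30 (-1.40 ± 0.26, adjusted p = 0.0124), and elastin itself, from Eln, did not pass (0.35 ± 0.21, adjusted p = 0.433). Efemp1 (adjusted p = 0.0784 and 0.0947) missed the threshold without either 4-week array.

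Proteoglycans and hyaluronan genes split, with 7 rises and 6 falls of 28 (3 without 4-week replicate 1 for the falls) and a median of -0.10. Versican, from Vcan, a large hyaluronan-binding proteoglycan, rose from 5.0 and 5.16 to 8.37 and 7.89 (3.05 ± 0.20, adjusted p = 0.000108). The hyaluronan synthase gene Has1 was under the guide at 4.68 and 4.69 and reached 6.63 and 6.23 (1.74 ± 0.18, adjusted p = 0.000873), and the hyaluronan receptor gene Cd44 rose from 5.71 and 6.02 to 7.21 and 7.54 (1.51 ± 0.18, adjusted p = 0.0016). Cell-surface heparan sulfate carriers differed by member. Glypican 3, from Gpc3, rose from 4.88 and 5.40 to 7.04 and 6.98 (1.87 ± 0.22, adjusted p = 0.0014) and glypican 4, from Gpc4, fell from 9.72 and 10.04 to 8.24 and 8.21 (-1.65 ± 0.17, adjusted p = 0.000749). Syndecan 1, from Sdc1, rose from 7.34 and 6.06 to 9.81 and 9.42 (2.91 ± 0.38, adjusted p = 0.00258), syndecan 4, from Sdc4, rose by 1.32 ± 0.20 (adjusted p = 0.00476) and syndecan 3, from Sdc3, fell by 1.08 ± 0.20 (adjusted p = 0.0126). Podocan, from Podn, a small leucine-rich proteoglycan, fell from 9.05 and 9.02 to 7.09 and 7.07 (-1.96 ± 0.18, adjusted p = 0.000524). The abundant small proteoglycans decorin, from Dcn (-0.12 ± 0.13, adjusted p = 0.702), biglycan, from Bgn (-0.18 ± 0.13, adjusted p = 0.559), and lumican, from Lum (0.05 ± 0.20, adjusted p = 0.939), did not pass. Sdc3 (adjusted p = 0.114) did not pass without 4-week replicate 1.

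Matrix proteases and their inhibitors rose widely, 16 of 34 with 1 fall (0 without either culture array or either 4-week array, 2 without quiescent replicate 2) and a median of 0.51. Of the gelatinases and their activator, Mmp2 rose from 9.16 and 9.43 to 11.55 and 11.17 (2.07 ± 0.24, adjusted p = 0.0014) and the membrane protease gene Mmp14 from 9.56 and 9.74 to 11.28 and 11.31 (1.65 ± 0.14, adjusted p = 0.0003), while Mmp9 stood at 5.13 and 4.97, then 4.53 and 4.88 (-0.34 ± 0.16, adjusted p = 0.274). Mmp19, a protease of basement membranes, rose from 6.56 and 6.17 to 9.65 and 9.42 (3.17 ± 0.17, adjusted p = 4.05e-05). The stromelysins Mmp3 (2.11 ± 0.27, adjusted p = 0.00244) and Mmp10 (2.49 ± 0.31, adjusted p = 0.00189) rose from near the guide. Mmp13, the interstitial collagenase of the mouse, stood at 4.09 and 4.46, then 4.65 and 4.62, and did not pass (0.36 ± 0.21, adjusted p = 0.412). The plasminogen activators rose with their receptor. Plat went from 6.88 and 7.60 to 10.81 and 10.70 (3.51 ± 0.22, adjusted p = 7.05e-05), Plau from 5.77 and 6.15 to 8.06 and 8.61 (2.38 ± 0.23, adjusted p = 0.000669) and Plaur from 6.66 and 5.02 to 8.38 and 8.99 (2.84 ± 0.47, adjusted p = 0.0077). Among adamalysins, Adamts12 (2.48 ± 0.16), Adam12 (1.71 ± 0.16) and Adam19 (1.93 ± 0.28) rose. Of the inhibitors, Timp3 rose by 0.63 ± 0.13 (adjusted p = 0.0227), Timp2 did not pass (0.42 ± 0.15, adjusted p = 0.148), and Reck, a membrane-anchored inhibitor, fell by 1.02 ± 0.24 (adjusted p = 0.0345). Plaur (adjusted p = 0.074) lost the call without 4-week replicate 2, and Timp3 (0.0618 to 0.125) without either quiescent array or either 4-week array. Reck (adjusted p = 0.056 to 0.204) fell short of the threshold without quiescent replicate 2, either culture array or either 4-week array.

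Integrins, the matrix receptors, went both ways, with 4 rises (2 without either 4-week array) and 2 falls (0 without either 4-week array, 1 without quiescent replicate 2) of 22, which is 18.2% and 9.09% against 4.04% and 4.67% of all genes. Itga5, the fibronectin receptor subunit, rose from 7.70 and 7.10 to 9.75 and 9.77 (2.36 ± 0.25, adjusted p = 0.00094). Itga11, a collagen receptor subunit of fibroblasts, rose from 4.86 and 5.14 to 6.42 and 5.89 (1.16 ± 0.19, adjusted p = 0.00789). Itgb3 fell from 10.17 and 8.79 to 7.17 and 7.47 (-2.16 ± 0.40, adjusted p = 0.0116). Its known partner Itgav, which carries the TGF-beta-activating integrins, did not pass (0.41 ± 0.15, adjusted p = 0.163), nor did Itgb1 (0.22 ± 0.16, adjusted p = 0.551). Itga11 (adjusted p = 0.0622) missed the threshold without 4-week replicate 1, and Itgb3 (0.103 and 0.063) without either 4-week array.

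The transcripts of the Hippo effectors did not pass the threshold, while some of their partners and targets rose. Yap1 stood at 8.20 and 7.97, then 8.23 and 7.87, so that the groups overlapped (-0.03 ± 0.17, adjusted p = 0.954), and a second, dimmer probe set of it gave 0.43 ± 0.19, adjusted p = 0.247. Wwtr1, which encodes TAZ, stood at 9.30 and 8.94, then 8.98 and 9.07 (-0.10 ± 0.18, adjusted p = 0.845). Of the 4 TEAD genes, Tead3 rose from 6.97 and 6.87 to 7.64 and 7.93 (0.87 ± 0.15, adjusted p = 0.00848) and Tead1 from 7.79 and 8.40 to 9.06 and 8.78 (0.82 ± 0.21, adjusted p = 0.0453), whereas Tead2 (0.00 ± 0.19, adjusted p = 0.997) and Tead4 (-0.31 ± 0.16, adjusted p = 0.329) did not pass. Of 29 Hippo pathway components, 5 rose (2 without 4-week replicate 2, 3 without quiescent replicate 1, either 2-week array or 4-week replicate 1) and 0 (0 unadjusted) fell, with a median of 0.00. The atypical cadherin gene Fat1 went from 5.55 and 5.48 to 8.11 and 8.10 (2.59 ± 0.13, adjusted p = 3.35e-05). Vgll3, a cofactor of TEAD proteins, rose from 5.38 and 6.19 to 8.14 and 8.43 (2.50 ± 0.25, adjusted p = 0.000709). The kinase genes Lats1 (0.23 ± 0.14, adjusted p = 0.433) and Lats2 (0.00 ± 0.17, adjusted p = 0.995) did not pass. Tead3 (adjusted p = 0.0763) did not pass without 4-week replicate 2, and Tead1 (0.0693 to 0.269) without quiescent replicate 1, either culture array, either 2-week array or either 4-week array.

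Among 21 genes known as targets of YAP and TAZ, 7 rose (4 without 4-week replicate 2) and 1 fell (2 without quiescent replicate 2), with a median of 0.34. Ankrd1, a nuclear protein of stretched muscle, had its 4-week arrays more than 1 unit apart, at 7.94 and 9.50, against 5.20 and 6.25 in quiescent cells (3.0 ± 0.53, adjusted p = 0.00973). The receptor kinase gene Axl rose from 8.76 and 8.93 to 10.17 and 10.29 (1.39 ± 0.14, adjusted p = 0.000669). Ccdc80, a matrix protein, rose from 9.28 and 9.39 to 11.06 and 10.79 (1.59 ± 0.15, adjusted p = 0.000533), and Myof, a membrane repair protein, from 8.51 and 9.10 to 10.19 and 10.15 (1.37 ± 0.19, adjusted p = 0.00311). Ccn2, the best known of these targets in fibrosis, rose from 10.48 and 10.76 to 11.24 and 11.45 (0.73 ± 0.19, adjusted p = 0.0473), while a second probe set far dimmer than that did not pass (0.16 ± 0.22, adjusted p = 0.786). Ccn1 stood at 10.74 and 11.50, then 11.57 and 11.56, and did not pass (0.44 ± 0.23, adjusted p = 0.329). Nt5e, the ectonucleotidase that makes adenosine and also a marker of quiescent stellate cells, fell from 9.93 and 9.39 to 7.73 and 7.52 (-2.03 ± 0.20, adjusted p = 0.000688). Ankrd1 (adjusted p = 0.0628) lost the call without 4-week replicate 2, and Ccn2 (0.0755 to 0.252) without quiescent replicate 1, either culture array or either 4-week array.

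Transcription factors went both ways. Of 37 factors of mesenchymal and stellate cells, 5 rose (3 without 4-week replicate 1) and 4 fell (0 without 4-week replicate 1, 1 without quiescent replicate 2 or 4-week replicate 2), which is 13.5% and 10.8% against 4.04% and 4.67% of all genes. Prrx1, a homeobox factor of activated fibroblasts, rose from 5.48 and 5.26 to 8.57 and 8.30 (3.06 ± 0.17, adjusted p = 4.05e-05). Runx1 went from 5.55 and 5.76 to 6.70 and 6.83 (1.11 ± 0.15, adjusted p = 0.00309) and Mef2c, a muscle factor, from 6.97 and 7.05 to 8.05 and 8.10 (1.06 ± 0.13, adjusted p = 0.00175). Wt1, known from mesothelium and the mesenchyme it gives rise to, rose from 6.98 and 7.66 to 8.95 and 8.78 (1.54 ± 0.24, adjusted p = 0.00545). Etv1 fell from 7.69 and 7.49 to 5.49 and 5.68 (-2.01 ± 0.32, adjusted p = 0.00594), not past the threshold on a dimmer probe set (-0.28 ± 0.27, adjusted p = 0.668), and the stellate factor Lhx2, whose loss activates these cells, from 8.76 and 9.23 to 8.02 and 7.99 (-0.99 ± 0.22, adjusted p = 0.0255). Nr1h4, the bile acid receptor FXR, fell by 0.95 ± 0.24 (adjusted p = 0.0414). Srf (0.76 ± 0.23, adjusted p = 0.0783), Mrtfa (0.22 ± 0.16, adjusted p = 0.539), Snai1 (-0.44 ± 0.22, adjusted p = 0.309), Twist1 (-0.54 ± 0.30, adjusted p = 0.381) and Gata4 (-0.19 ± 0.16, adjusted p = 0.593) did not pass. Of 14 Kruppel-like factors 0 (0 unadjusted) rose and 2 fell (0 without 4-week replicate 2, 1 without quiescent replicate 1 or 4-week replicate 1, 4 without quiescent replicate 2), Klf10 (-0.96 ± 0.17, adjusted p = 0.0111) and Klf2 (-0.62 ± 0.14, adjusted p = 0.0264). Wt1 (adjusted p = 0.0593) and Etv1 (0.0638) fell short of the threshold without 4-week replicate 1, and Klf10 (0.0966) without 4-week replicate 2. Lhx2 (adjusted p = 0.0908 to 0.138) missed the threshold without quiescent replicate 2 or either 4-week array, and Klf2 (0.0563 to 0.172) without either quiescent array or either 4-week array. Nr1h4 (adjusted p = 0.0596 to 0.218) did not pass without quiescent replicate 2, either 2-week array or either 4-week array.

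TGF-beta is the main fibrogenic cytokine, and its ligands differed. Tgfb3 rose from 5.76 and 6.68 to 9.51 and 9.72 (3.40 ± 0.26, adjusted p = 0.000206) and Tgfb2 from 4.58 and 5.48 to 6.91 and 6.93 (1.89 ± 0.26, adjusted p = 0.00304). Tgfb1, the most studied ligand in liver fibrosis, stood at 9.48 and 9.52, then 9.28 and 9.34, and did not pass (-0.19 ± 0.18, adjusted p = 0.669). Lrrc32, which tethers the latent ligand to the cell surface, rose from 9.82 and 9.77 to 10.69 and 10.78 (0.94 ± 0.14, adjusted p = 0.00377). The signalling receptors Tgfbr1 (0.96 ± 0.29, adjusted p = 0.0805) and Tgfbr2 (0.04 ± 0.14, adjusted p = 0.929) did not pass, and the coreceptors Tgfbr3 (-0.74 ± 0.15, adjusted p = 0.0186) and Eng (-0.65 ± 0.14, adjusted p = 0.0255) fell. The inhibitory Smad7, itself induced by TGF-beta, rose from 8.26 and 8.05 to 9.28 and 8.89 (0.93 ± 0.17, adjusted p = 0.0115), while Smad2 (0.14 ± 0.20, adjusted p = 0.807), Smad3 (0.25 ± 0.15, adjusted p = 0.415) and Smad4 (0.02 ± 0.17, adjusted p = 0.981) did not pass. In all, 6 of 25 members rose and 3 fell (0 without quiescent replicate 2 or either 4-week array). Smad7 (adjusted p = 0.101) lost the call without 4-week replicate 1, and Eng (0.0903 to 0.174) without quiescent replicate 2 or either 4-week array. Tgfbr3 (adjusted p = 0.0506 to 0.128) fell short of the threshold without either quiescent array or either 4-week array.

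BMP and activin genes went both ways, with 4 rises and 8 falls of 34. There were 3 rises and 1 fall without 4-week replicate 1, 3 rises and 2 falls without 4-week replicate 2, and 4 rises and 5 falls without quiescent replicate 1, so which direction held more calls depended on 1 array. The ligand Bmp4 fell from 8.96 and 9.36 to 7.40 and 7.34 (-1.79 ± 0.26, adjusted p = 0.00369) and Bmp2 from 9.40 and 8.62 to 7.24 and 7.53 (-1.62 ± 0.25, adjusted p = 0.00554). Gdf2, which encodes BMP9, a ligand that stellate cells make for the endothelium, fell from 11.18 and 11.60 to 10.48 and 10.52 (-0.89 ± 0.17, adjusted p = 0.0123). The BMP-induced genes Id1 (-0.94 ± 0.20, adjusted p = 0.023) and Smad6 (-0.79 ± 0.16, adjusted p = 0.0177) fell, and the pseudoreceptor gene Bambi by 0.77 ± 0.17 (adjusted p = 0.0275). Some antagonists rose. Nbl1, which binds BMP ligands, went from 5.25 and 5.14 to 6.61 and 6.75 (1.49 ± 0.16, adjusted p = 0.000833), and Fstl3, which binds activin, from 5.26 and 6.37 to 8.24 and 8.72 (2.67 ± 0.34, adjusted p = 0.00228). Inhba, the subunit of activin A, rose from 5.19 and 5.42 to 6.99 and 7.20 (1.79 ± 0.24, adjusted p = 0.00282). Bmp2 (adjusted p = 0.0627) missed the threshold without 4-week replicate 1, and Gdf2 (0.0958 and 0.0767) without either 4-week array. Id1 (adjusted p = 0.0994 to 0.145) and Smad6 (0.0612 to 0.124) did not pass without quiescent replicate 1 or either 4-week array, and Bambi (0.053 to 0.187) without either quiescent array or either 4-week array.

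Growth factor axes changed in some members. Of 26 genes of the PDGF, FGF, EGF and HGF axes, 3 rose (1 without 4-week replicate 1) and 2 fell (0 without 4-week replicate 2, 1 without either quiescent array, either culture array, either 2-week array or 4-week replicate 1). Pdgfrb, the receptor for the main mitogen of these cells, rose from 9.63 and 10.24 to 11.34 and 11.08 (1.28 ± 0.20, adjusted p = 0.00623). Pdgfra stood at 10.77 and 10.57, then 10.90 and 10.46 (0.01 ± 0.29, adjusted p = 0.992), and Hgf, the hepatocyte mitogen, at 11.84 and 11.67, then 11.51 and 11.56 (-0.22 ± 0.13, adjusted p = 0.435), neither past the threshold. Epiregulin, from Ereg, an EGF receptor ligand, rose from 7.09 and 8.33 to 10.54 and 10.84 (2.97 ± 0.34, adjusted p = 0.00134). In the IGF axis 2 of 14 rose (1 without 4-week replicate 1) and 0 (3 unadjusted) fell (2 without quiescent replicate 2), with Igf1 going from 7.45 and 7.19 to 8.78 and 8.61 (1.37 ± 0.17, adjusted p = 0.00185) and Pappa, the protease that frees IGF from its binding proteins, from 5.62 and 5.30 to 6.85 and 6.56 (1.25 ± 0.20, adjusted p = 0.00584). Pdgfrb (adjusted p = 0.0692) and Pappa (0.0649) lost the call without 4-week replicate 1.

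Vascular growth factor genes fell more often than they rose, with receptors among the falls. Of 20, 3 rose (1 without either 4-week array) and 8 fell (3 without 4-week replicate 1). The ligand Vegfa rose from 6.96 and 6.83 to 8.80 and 8.25 (1.63 ± 0.19, adjusted p = 0.00134), as did Angptl4 (2.74 ± 0.45, adjusted p = 0.00689). The endothelial receptors Kdr (-2.57 ± 0.37, adjusted p = 0.00368) and Tie1 (-1.07 ± 0.16, adjusted p = 0.00417) fell, and both also stand in the list of sinusoidal endothelial markers. Calcrl, the receptor for adrenomedullin and CGRP, fell from 11.69 and 11.94 to 10.21 and 10.30 (-1.56 ± 0.16, adjusted p = 0.000764), with its partner Ramp2 (-1.25 ± 0.19, adjusted p = 0.00526). Ramp2 (adjusted p = 0.0562) fell short of the threshold without 4-week replicate 1, and Angptl4 (0.0574 and 0.0613) without either 4-week array.

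In the hedgehog pathway 3 of 14 rose (1 without quiescent replicate 1 or either 4-week array) and 2 fell (1 without quiescent replicate 2 or either 4-week array). The fallen members, Hhip from 7.88 and 7.28 to 4.97 and 4.92 (-2.64 ± 0.20, adjusted p = 0.000204) and Ptch1 from 8.29 and 8.57 to 7.42 and 6.99 (-1.23 ± 0.25, adjusted p = 0.0189), bind the ligand and are known to be induced by the pathway, and the target Gli1 stood at 5.20 and 5.17, then 5.12 and 5.27 (0.01 ± 0.14, adjusted p = 0.986). The coreceptor gene Boc rose from 5.39 and 5.53 to 6.87 and 6.85 (1.40 ± 0.14, adjusted p = 0.000733), and Gli2 by 0.71 ± 0.15 (adjusted p = 0.0226). Of 35 Wnt genes, 4 rose (0 without 4-week replicate 2, 2 without 4-week replicate 1) and 3 fell (1 without 4-week replicate 2). Rspo3, which amplifies Wnt signals and zonates the liver lobule, fell from 11.57 and 11.80 to 10.57 and 10.61 (-1.09 ± 0.15, adjusted p = 0.00311). The ligands Wnt4 (1.15 ± 0.18, adjusted p = 0.00616) and Wnt5a (0.86 ± 0.20, adjusted p = 0.0296) and the decoy receptor Frzb (1.28 ± 0.20, adjusted p = 0.00611) rose, and the Wnt target Axin2 did not pass (-0.13 ± 0.17, adjusted p = 0.787). Notch genes gave 1 rise (0 without quiescent replicate 1 or either 4-week array) and 4 falls (0 without 4-week replicate 1, 2 without 4-week replicate 2) of 17. Notch3, the receptor of mural cells, rose from 5.53 and 5.49 to 6.33 and 6.39 (0.86 ± 0.17, adjusted p = 0.0174), while Dll4, an endothelial ligand, fell from 6.88 and 5.80 to 4.46 and 4.49 (-1.86 ± 0.29, adjusted p = 0.00584). Wnt4 (adjusted p = 0.0582) and Frzb (0.0591) missed the threshold without 4-week replicate 2, and Dll4 (0.0561) without 4-week replicate 1. Ptch1 (adjusted p = 0.0564 to 0.144) did not pass without quiescent replicate 2 or either 4-week array, and Gli2 (0.0969 to 0.141) and Notch3 (0.0516 to 0.112) without quiescent replicate 1 or either 4-week array. Wnt5a (adjusted p = 0.0525 to 0.208) lost the call without quiescent replicate 1, either culture array or either 4-week array.

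Markers of the quiescent stellate cell fell in part. Of 26 measured, 15 fell (7 without either 4-week array) and 1 rose (0 without either 2-week array or either 4-week array), with a median of -0.69. Vipr1, the receptor for vasoactive intestinal peptide, stood at 10.19 and 10.28, then 7.70 and 7.95 (-2.41 ± 0.19, adjusted p = 0.000248). Rgs4, a brake on G-protein signals, fell from 9.70 and 9.56 to 6.26 and 7.15 (-2.92 ± 0.25, adjusted p = 0.000348). The collectins Colec10, from 10.38 and 10.52 to 9.05 and 8.90 (-1.47 ± 0.15, adjusted p = 0.000694), and Colec11, from 10.83 and 11.25 to 8.95 and 9.27 (-1.93 ± 0.25, adjusted p = 0.00249), lectins of innate immunity, fell together. The quiescent arrays of Vipr1 and Rgs4 lay close together, and both 4-week arrays lay more than 2 units lower. Pth1r, the parathyroid hormone receptor, went from 9.88 and 10.55 to 8.59 and 8.60 (-1.62 ± 0.21, adjusted p = 0.00239). Other falls were smaller, such as the nerve growth factor receptor gene Ngfr (-0.89 ± 0.17, adjusted p = 0.0124) and Bmp5 (-0.80 ± 0.18, adjusted p = 0.0263). Nes, the intermediate filament nestin, was the member that rose, from quiescent arrays more than 2 units apart (4.84 and 6.97) to 8.18 and 8.55 (2.46 ± 0.54, adjusted p = 0.0252). Beside Lrat, Reln and Des, the members Hgf, Cygb (-0.25 ± 0.16, adjusted p = 0.455), Pparg (-0.28 ± 0.21, adjusted p = 0.558) and Gfap (-0.68 ± 0.20, adjusted p = 0.0773) did not pass. Ngfr (adjusted p = 0.108 and 0.0618) fell short of the threshold without either 4-week array, and Bmp5 (0.0961 to 0.149) without quiescent replicate 2 or either 4-week array. Nes (adjusted p = 0.0503 to 0.157) missed the threshold without either 2-week array or either 4-week array.

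Most vitamin A genes did not pass, while some fell. Of 31 retinoid genes, 5 fell (2 without either 4-week array) and 1 rose (0 without quiescent replicate 2 or either 4-week array, 2 without either culture array), which is 16.1% and 3.23% against 4.67% and 4.04% of all genes. Aldh1a1, which oxidises retinal to retinoic acid, fell from 11.14 and 10.86 to 9.94 and 9.98 (-1.04 ± 0.15, adjusted p = 0.00353). Rbp4, the plasma carrier of retinol, known from hepatocytes, went from 8.49 and 7.86 to 6.92 and 6.60 (-1.42 ± 0.21, adjusted p = 0.00435), and the nuclear receptor gene Rxra fell by 0.89 ± 0.16 (adjusted p = 0.0108). Dhrs3, which returns retinal to retinol, rose from 9.56 and 9.15 to 10.42 and 10.29 (1.0 ± 0.23, adjusted p = 0.0292). Rarb, a target of retinoic acid, did not pass (0.28 ± 0.15, adjusted p = 0.329). Of 29 lipid droplet and fatty acid genes 0 (5 unadjusted) rose (1 without quiescent replicate 2, 2 without either culture array) and 3 fell (1 without either 4-week array), led by the monoglyceride lipase gene Mgll, from 7.91 and 7.89 to 6.25 and 6.70 (-1.43 ± 0.20, adjusted p = 0.00353). The droplet coat genes Plin2 (0.08 ± 0.16, adjusted p = 0.873) and Plin5 (-0.61 ± 0.24, adjusted p = 0.189) did not pass. Rxra (adjusted p = 0.0698 and 0.0865) did not pass without either 4-week array, and Dhrs3 (0.105 to 0.179) without quiescent replicate 2 or either 4-week array.

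Cytokines known from stellate cells gave 8 rises (2 without 4-week replicate 2, 5 without quiescent replicate 1 or 4-week replicate 1) and 2 falls (1 without quiescent replicate 1, either 2-week array or either 4-week array) of 25. Cxcl14 rose most, from quiescent arrays at 7.86 and 6.51 to 11.37 and 11.19 (4.10 ± 0.44, adjusted p = 0.00094). Interleukin 6 went from 5.33 and 4.55 to 7.45 and 8.46 (Il6, 3.02 ± 0.33, adjusted p = 0.00108), with the 4-week arrays 1 unit apart. The related cytokines Il11, from 4.90 and 5.01 to 6.46 and 6.71 (1.63 ± 0.24, adjusted p = 0.00476), and Lif, from 5.49 and 6.21 to 7.13 and 7.42 (1.42 ± 0.25, adjusted p = 0.00897), also rose. The eosinophil attractant Ccl11 (1.08 ± 0.19, adjusted p = 0.0103) and the monocyte attractant Ccl7 (1.06 ± 0.22, adjusted p = 0.021) rose, whereas Ccl2 stood at 10.82 and 11.22, then 10.57 and 10.78 (-0.35 ± 0.17, adjusted p = 0.308). Il34, a ligand of the macrophage receptor CSF1R, fell from 9.64 and 9.24 to 7.98 and 8.07 (-1.42 ± 0.17, adjusted p = 0.00169), and Csf1, the other ligand, did not pass (0.18 ± 0.15, adjusted p = 0.616). Of 16 NF-kappaB response genes 2 rose and 0 (2 unadjusted) fell (4 without quiescent replicate 2). They were Tnfaip6, a hyaluronan-modifying protein, from 7.09 and 6.51 to 9.65 and 9.76 (2.91 ± 0.20, adjusted p = 0.000113), and Tnfaip2, from 5.53 and 5.12 to 7.59 and 7.20 (2.07 ± 0.20, adjusted p = 0.000558). Icam1 (-0.70 ± 0.22, adjusted p = 0.102) and Nfkbia (-0.44 ± 0.18, adjusted p = 0.21) did not pass. Cytokines better known from macrophages gave 0 (0 unadjusted) rises (1 without quiescent replicate 1) and 4 falls (2 without 4-week replicate 1) of 18, with Il1a going from 10.23 and 9.01 to 6.79 and 7.19 (-2.63 ± 0.37, adjusted p = 0.00367). Il11 (adjusted p = 0.0517), Lif (0.0836) and Ccl11 (0.0886) lost the call without 4-week replicate 2, and Ccl7 (0.059 to 0.129) without quiescent replicate 1 or either 4-week array.

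Genes of vessel tone and prostaglandins went both ways, 7 up (3 without 4-week replicate 1, 4 without 4-week replicate 2) and 5 down (2 without 4-week replicate 1, 3 without 4-week replicate 2) of 31. Endothelin 1, which contracts stellate cells, was under the guide at 4.56 and 4.46 and reached 6.92 and 6.98 (Edn1, 2.44 ± 0.19, adjusted p = 0.000241). Cyclooxygenase 2, from Ptgs2, rose from 6.04 and 5.16 to 8.79 and 9.10 (3.34 ± 0.34, adjusted p = 0.000749). The prostaglandin E2 receptors parted, as Ptger2 fell from 7.72 and 8.0 to 5.39 and 5.81 (-2.26 ± 0.20, adjusted p = 0.000387) while Ptger4 rose from 5.86 and 5.24 to 7.23 and 6.91 (1.52 ± 0.36, adjusted p = 0.0324). So did the natriuretic peptide receptors, with the signalling receptor Npr1 falling from 7.29 and 7.02 to 5.57 and 5.69 (-1.53 ± 0.14, adjusted p = 0.000533) and the clearance receptor Npr3 rising from 6.09 and 7.25 to 8.95 and 8.98 (2.30 ± 0.31, adjusted p = 0.00284). Agtr1a, the angiotensin II receptor, fell from 11.94 and 11.56 to 10.69 and 10.94 (-0.93 ± 0.22, adjusted p = 0.0317), and the endothelin receptor gene Ednrb did not pass (-0.70 ± 0.28, adjusted p = 0.184). Regulators of G-protein signalling gave 2 rises (1 without either 4-week array) and 3 falls (1 without either 4-week array) of 13. Rgs16 rose from 4.58 and 5.58 to 9.44 and 9.46 (4.37 ± 0.33, adjusted p = 0.000204), opposite to Rgs4. Ptger4 (adjusted p = 0.063 to 0.207) fell short of the threshold without quiescent replicate 2, either 2-week array or either 4-week array, and Agtr1a (0.0578 to 0.209) without quiescent replicate 1, either 2-week array or either 4-week array.

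Stellate cells carry genes otherwise known from neurons, and 9 of 28 such genes rose with 1 fall (0 without either 4-week array, 2 without either quiescent array or either culture array). The guidance ligand Slit3 went from 6.24 and 5.86 to 8.76 and 8.73 (2.69 ± 0.20, adjusted p = 0.0002) and its receptor Robo2 from 8.91 and 9.32 to 10.51 and 10.49 (1.38 ± 0.17, adjusted p = 0.00172). Ncam1, the neural cell adhesion molecule, rose from 4.81 and 6.04 to 8.77 and 8.55 (3.24 ± 0.35, adjusted p = 0.000927). The neurotrophin receptor gene Ntrk3 rose from 5.27 and 4.78 to 7.80 and 8.23 (2.99 ± 0.23, adjusted p = 0.000206). The semaphorin gene Sema3a (1.08 ± 0.13) and the neuroligin gene Nlgn2 (1.63 ± 0.19) rose as well.

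Few genes of mitosis and DNA replication were called, in shares near or under those of all genes (4.04% higher, 4.67% lower). Of the 29 mitosis genes, 14 lay above the guide to background in quiescent and 8 in 4-week cells, and of the 26 replication genes 21 and 19. The others rest on signals close to background. Of 29 mitosis genes 0 (0 unadjusted) rose (1 without quiescent replicate 2) and 1 fell (0 without quiescent replicate 2, either culture array or either 4-week array), and of 26 DNA replication genes 1 rose (0 without any of the 8 arrays) and 1 fell (0 without quiescent replicate 2, either culture array, either 2-week array or either 4-week array). Mki67, the proliferation antigen, stood at 5.10 and 5.34, then 4.75 and 5.09 (-0.30 ± 0.18, adjusted p = 0.429) and Top2a at 4.09 and 5.29, then 4.02 and 4.25 (-0.55 ± 0.44, adjusted p = 0.577), so neither passed. Ccnd1, cyclin D1, did not pass (-0.82 ± 0.24, adjusted p = 0.0754). Rb1, the retinoblastoma gene that holds cells before replication, fell from 8.07 and 7.89 to 6.91 and 6.84 (-1.11 ± 0.15, adjusted p = 0.00269).

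Immediate early genes, which cell isolation itself can induce, stood at high levels in both groups. Fos lay at 10.49 and 10.68, then 10.50 and 10.53 (-0.06 ± 0.14, adjusted p = 0.88), Egr1 at 11.92 and 11.86, then 11.51 and 11.61 (-0.33 ± 0.30, adjusted p = 0.638) and Jun at 11.65 and 11.52, then 11.13 and 11.24 (-0.40 ± 0.23, adjusted p = 0.396). Of 27 such genes 1 rose (0 without either 4-week array, 2 without quiescent replicate 2, 3 without quiescent replicate 1) and 4 fell (0 without 4-week replicate 1, 1 without quiescent replicate 1 or 4-week replicate 2, 2 without either 2-week array). Nr4a2, an orphan nuclear receptor, rose from 7.85 and 6.53 to 8.95 and 8.90 (1.74 ± 0.37, adjusted p = 0.0225) and the cytokine brake Socs3 fell from 11.48 and 11.12 to 10.23 and 10.39 (-0.99 ± 0.17, adjusted p = 0.00799). Interferon response and antigen processing genes gave 2 rises and 2 falls of 28. That is 7.14% each way, against 4.04% higher and 4.67% lower over all genes. The viral tether Bst2 rose from 10.00 and 10.02 to 11.34 and 11.54 (1.43 ± 0.19, adjusted p = 0.00293) with the interferon factor Irf7 (1.36 ± 0.19, adjusted p = 0.00305), while the factor Irf1, from 9.19 and 9.21 to 7.63 and 7.79 (-1.49 ± 0.21, adjusted p = 0.00376), and the immunoproteasome subunit Psmb9 (-1.01 ± 0.15, adjusted p = 0.00403) fell. The interferon-induced genes Ifit1 (0.49 ± 0.27, adjusted p = 0.36), Isg15 (0.69 ± 0.19, adjusted p = 0.063) and Mx1 (-0.03 ± 0.16, adjusted p = 0.951) did not pass. Socs3 (adjusted p = 0.0803) missed the threshold without 4-week replicate 1, and Nr4a2 (0.136 and 0.117) without either 4-week array.

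Glycolysis genes rose in part. Of 21 glycolysis and hypoxia genes 8 rose (3 without 4-week replicate 1, 4 without 4-week replicate 2) and 1 fell (0 without quiescent replicate 1, either culture array, either 2-week array or either 4-week array, 2 without quiescent replicate 2), while of 26 oxidative phosphorylation genes 0 (5 unadjusted) rose and 0 (0 unadjusted) fell in limma's test. Hexokinase 2, which traps glucose in the cell, went from 5.28 and 5.18 to 7.69 and 7.66 (Hk2, 2.45 ± 0.17, adjusted p = 0.000121). The later enzymes Pfkl (0.92 ± 0.13, adjusted p = 0.00396), Tpi1 (0.92 ± 0.15, adjusted p = 0.00669) and Pgk1 (0.83 ± 0.13, adjusted p = 0.00666) rose by less than 1 unit. Of 26 chaperones of the endoplasmic reticulum 5 rose (1 without quiescent replicate 1 or either 4-week array, 2 without quiescent replicate 2 or either culture array) and 0 (3 unadjusted) fell (1 without quiescent replicate 2), with Hyou1 from 8.28 and 8.29 to 9.42 and 9.48 (1.17 ± 0.15, adjusted p = 0.00265). Lysosomal genes gave 1 rise, that of the collagen-degrading cathepsin Ctsk from 6.48 and 6.31 to 9.09 and 8.75 (2.53 ± 0.16, adjusted p = 9.44e-05), and 1 fall, that of Ctso (-1.32 ± 0.18, adjusted p = 0.00304), of 26. Each is 3.85% of the list, under the 4.04% higher and 4.67% lower of all genes. Among antioxidant genes 4 of 28 fell (1 without either 4-week array) and 1 rose (0 without either culture array, either 2-week array or either 4-week array, 2 without quiescent replicate 2), with catalase, from Cat, going from 9.39 and 9.32 to 8.41 and 8.38 (-0.96 ± 0.14, adjusted p = 0.00394). Of 17 histone deacetylase and sirtuin genes, Hdac9 rose (0.78 ± 0.15, adjusted p = 0.0149), and the others did not pass. That is 5.88% higher, near the 4.04% of all genes. Tpi1 (adjusted p = 0.0711) did not pass without 4-week replicate 1, and Pgk1 (0.0592 and 0.0537) without either 4-week array. Hdac9 (adjusted p = 0.0503 to 0.104) lost the call without quiescent replicate 1 or either 4-week array.

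**Figure D3:**
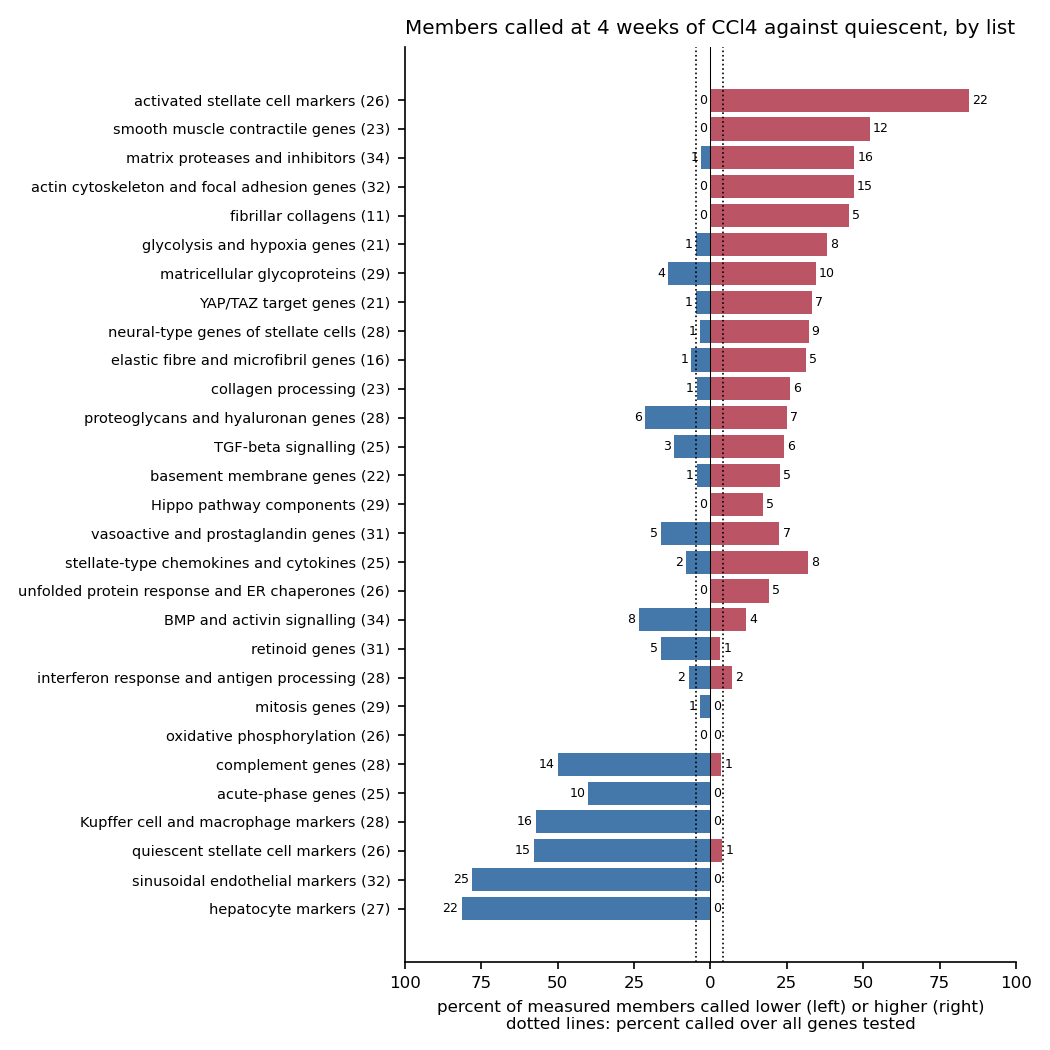
Bars give the share of measured members (percent, x axis) that rose (red, right) or fell (blue, left) after 4 weeks of CCl4 in each gene list (y axis), with dotted lines at the 4.04% and 4.67% of all genes. Activated stellate markers lie at the rising end, and hepatocyte, sinusoidal endothelial and Kupffer cell markers at the falling end.

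Hepatocyte-type genes were 14 of the 20 largest falls. Of 27 hepatocyte markers 22 fell and 0 (0 unadjusted) rose, with a median of -2.36. Over all lists of hepatocyte-type genes (markers, zonated, acute-phase and complement genes) 100 genes were measured. Of these 49 fell and 1 rose, and they held 20 of the 44 falls over 8-fold. The complement list also holds C1qb, known from macrophages, which fell (-1.77 ± 0.18, adjusted p = 0.000694). The 49 falls are thus not all of hepatocyte genes. Alb, which encodes albumin, stood at 11.90 and 11.63, then 9.57 and 9.23 (-2.36 ± 0.20, adjusted p = 0.000348). Its 4-week level was thus lower than quiescent and still far above the guide. The fibrinogen chain gene Fgg went from 12.05 and 10.63 to 6.62 and 5.87 (-5.10 ± 0.48, adjusted p = 0.000524), and Mup3, a major urinary protein, from 11.52 and 10.75 to 6.40 and 6.70 (-4.59 ± 0.36, adjusted p = 0.000251). The deepest fall of any gene was that of Saa2, an acute-phase serum amyloid, from 11.99 and 10.78 to 3.94 and 3.65 (-7.59 ± 0.87, adjusted p = 0.00134), a level under the guide. Hemopexin, from Hpx, fell by 4.20 ± 0.45 (adjusted p = 0.00094) and haptoglobin, from Hp, by 4.0 ± 0.48 (adjusted p = 0.00175). Others of the 20 largest falls were Fga, Fgb and Fgl1, genes of fibrinogen chains and a fibrinogen-like protein (-4.28 ± 0.52, adjusted p = 0.00175, -4.05 ± 0.44, adjusted p = 0.001 and -4.05 ± 0.58, adjusted p = 0.00368). The acute-phase genes Orm1 (-4.21 ± 0.45, adjusted p = 0.000927), Orm2 (-4.64 ± 0.84, adjusted p = 0.0111), Saa4 (-4.48 ± 0.76, adjusted p = 0.00831) and Apcs (-4.35 ± 0.59, adjusted p = 0.00305) were among them too. So were the protease inhibitor genes Pzp (-4.50 ± 0.45, adjusted p = 0.000696), Mug1 (-4.08 ± 0.59, adjusted p = 0.00399) and Ambp (-4.21 ± 0.40, adjusted p = 0.000543) and the complement C5 gene Hc (-3.90 ± 0.39, adjusted p = 0.000709). The secreted-protein genes Mup20 (-5.08 ± 0.51, adjusted p = 0.000709), Obp2a (-4.95 ± 0.46, adjusted p = 0.000505) and Apon (-4.13 ± 0.49, adjusted p = 0.00155) were the others. Of these large falls Mup20, Obp2a, Pzp, Mug1 and Apon stand in no hepatocyte-type list. For each of the 14 genes from Fga to Apon quiescent replicate 1 lay over 1 unit above replicate 2. That both lay above both 4-week arrays was a condition for being ranked among these falls. Cyp2e1, the pericentral enzyme that activates CCl4, stood at 8.96 and 7.07, then 5.82 and 5.61 (-2.30 ± 0.58, adjusted p = 0.0442), and the periportal Cyp2f2 at 8.40 and 7.75, then 5.11 and 5.19 (-2.93 ± 0.26, adjusted p = 0.000375). Quiescent replicate 1 lay above replicate 2 for Fgg and Cyp2e1, by more than 1 unit. Among acute-phase genes 10 of 25 fell (5 without either 4-week array) and 0 (1 unadjusted) rose (2 without quiescent replicate 1), whereas Saa3 (0.90 ± 0.79, adjusted p = 0.632) and Serpina3n (2.0 ± 0.81, adjusted p = 0.203), acute-phase genes also made outside hepatocytes, did not pass. Of 24 zonated genes 6 fell (2 without 4-week replicate 2, 3 without 4-week replicate 1, 10 without quiescent replicate 2). Of 28 complement genes 14 fell (4 without 4-week replicate 1, 5 without 4-week replicate 2) and 1 rose (0 without quiescent replicate 2, either 2-week array or either 4-week array), and C4b was the one that rose (0.74 ± 0.17, adjusted p = 0.0298). Orm2 (adjusted p = 0.0701 and 0.0917) and Saa4 (0.0712 and 0.0648) fell short of the threshold without either 4-week array, and Cyp2e1 (0.0719 to 0.21) without quiescent replicate 1, either culture array or either 4-week array. C4b (adjusted p = 0.051 to 0.172) missed the threshold without quiescent replicate 2, either 2-week array or either 4-week array.

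Summed on the linear scale, the level of the 27 hepatocyte markers was 40047 and 21428 on the quiescent and 4942 and 3987 on the 4-week arrays. For the 32 endothelial markers it was 28477 and 20079 and then 6826 and 8049, and for the 28 Kupffer cell and macrophage markers 12512 and 14092 and then 6731 and 7557. Of the hepatocyte markers 26 lay above the guide in quiescent and 24 in 4-week cells, of the endothelial ones 31 and 31, and of the macrophage ones 28 and 26. The defining Alb, Clec4g and Csf1r were above it in both. Their part in the changes of other gene groups was not tested.

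Most markers of the sinusoidal endothelium fell. Of 32 measured, 25 fell (15 without 4-week replicate 1) and 0 (0 unadjusted) rose, with a median of -2.08. Clec4g, a lectin of the sinusoid, stood at 12.17 and 11.28, then 8.59 and 9.07 (-2.90 ± 0.30, adjusted p = 0.000835). The scavenger receptor gene Stab2, which clears hyaluronan, fell from 9.66 and 8.98 to 6.42 and 6.92 (-2.65 ± 0.30, adjusted p = 0.00129), and Dnase1l3, a secreted nuclease, from 9.28 and 8.72 to 6.31 and 6.50 (-2.59 ± 0.19, adjusted p = 0.0002). The mannose receptor gene Mrc1 went from 9.88 and 9.01 to 6.30 and 6.93 (-2.83 ± 0.29, adjusted p = 0.000749), Ehd3 from 11.32 and 11.24 to 9.18 and 9.29 (-2.05 ± 0.17, adjusted p = 0.000282) and clotting factor VIII, from F8, from 9.20 and 8.37 to 6.16 and 6.65 (-2.39 ± 0.27, adjusted p = 0.00135). The 7 members that did not pass included the junction gene Cdh5 (-2.10 ± 0.59, adjusted p = 0.0657), Lyve1 (-1.01 ± 0.66, adjusted p = 0.476) and Vwf (0.03 ± 0.13, adjusted p = 0.952), a marker of larger vessels that lay near the guide.

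Markers of resident macrophages fell, and a few of injury macrophages rose. Of 28 Kupffer cell and macrophage markers 16 fell and 0 (0 unadjusted) rose, with a median of -1.23. Vsig4, a complement receptor of Kupffer cells, stood at 9.08 and 9.24, then 5.52 and 4.58 (-4.10 ± 0.33, adjusted p = 0.000266). Timd4, which binds dying cells, fell from 7.29 and 7.66 to 4.83 and 5.08 (-2.52 ± 0.20, adjusted p = 0.000251) and the lectin gene Clec4f, held to be specific to Kupffer cells, from 7.61 and 8.68 to 6.17 and 5.82 (-2.15 ± 0.30, adjusted p = 0.00342). The general macrophage genes Csf1r, from 7.66 and 7.74 to 6.53 and 6.53 (-1.18 ± 0.13, adjusted p = 0.001), and Adgre1, a surface receptor gene, from 6.91 and 6.49 to 4.76 and 5.04 (-1.80 ± 0.26, adjusted p = 0.00368), fell too. Lyz2, the lysozyme of myeloid cells, stood at 9.88 and 10.30, then 10.21 and 10.30 (0.17 ± 0.19, adjusted p = 0.725) and Cd68 at 8.52 and 8.78, then 8.19 and 8.33 (-0.39 ± 0.16, adjusted p = 0.219), neither past the threshold. Of 27 markers of injury macrophages, monocytes and neutrophils 3 rose and 0 (1 unadjusted) fell (1 without 4-week replicate 2, 4 without quiescent replicate 2). Gpnmb, a gene of lipid-laden macrophages, rose from 5.63 and 5.68 to 8.63 and 7.97 (2.65 ± 0.24, adjusted p = 0.000441), and macrophage elastase, from Mmp12, from 4.87 and 4.79 to 6.98 and 6.84 (2.08 ± 0.13, adjusted p = 9.44e-05). The monocyte receptor gene Ccr2 rose by 0.79 ± 0.20 (adjusted p = 0.0411), and Trem2 did not pass (0.17 ± 0.25, adjusted p = 0.804). Ccr2 (adjusted p = 0.0633 to 0.242) did not pass without either quiescent array or either 4-week array.

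**Figure D4:**
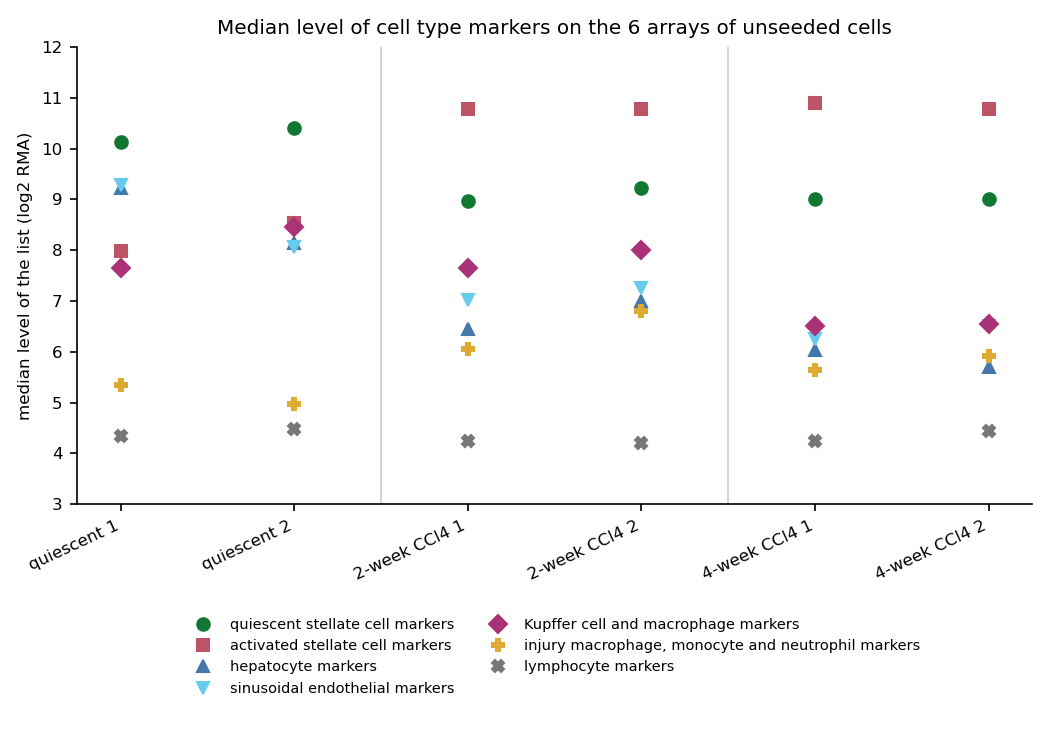
Each symbol is the median level (log2 RMA, y axis) of a marker list on each of the 6 arrays of unseeded cells (x axis). Hepatocyte, sinusoidal endothelial and Kupffer cell medians are lower on the 4-week than on the quiescent arrays, activated stellate markers are higher, and lymphocyte medians lie under the guide of 4.75 throughout.

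Other mesenchymal cells of the liver share markers with activated stellate cells, and their lists split. Of 14 portal fibroblast markers 4 rose and 3 fell. Cd34 went from 7.06 and 6.48 to 8.57 and 8.14 (1.58 ± 0.21, adjusted p = 0.00297) and dermatopontin, from Dpt, from 10.36 and 10.82 to 11.84 and 11.73 (1.20 ± 0.18, adjusted p = 0.00419), while the peptidase gene Dpp4 fell from 9.12 and 7.85 to 4.97 and 5.50 (-3.25 ± 0.39, adjusted p = 0.00166) and Abi3bp from 10.69 and 10.94 to 9.03 and 9.30 (-1.65 ± 0.16, adjusted p = 0.000533). Thy1, the marker most used for portal fibroblasts, stood at 6.16 and 5.70, then 6.56 and 7.19, and did not pass (0.94 ± 0.47, adjusted p = 0.319). Vascular smooth muscle and pericyte markers, of which most stand in other lists, gave 7 rises (4 without either 4-week array) and 5 falls (2 without either 4-week array, 3 without quiescent replicate 1), with the potassium channel gene Kcnj8 falling from 9.52 and 9.69 to 7.86 and 7.18 (-2.09 ± 0.33, adjusted p = 0.00575). Mesothelial markers gave 2 rises (1 without either 4-week array) and 1 fall of 15, with Msln, which defines mesothelium, at 4.54 and 4.80, then 4.79 and 4.75 (0.10 ± 0.15, adjusted p = 0.803). Cholangiocyte markers gave 0 (0 unadjusted) rises and 2 falls (1 without 4-week replicate 1) of 19, the keratins Krt8 (-1.35 ± 0.17, adjusted p = 0.00191) and Krt18 (-1.78 ± 0.31, adjusted p = 0.00875), which hepatocytes also make, and Epcam stood at 3.75 and 3.85, then 3.73 and 3.75 (-0.06 ± 0.14, adjusted p = 0.898). Kcnj8 (adjusted p = 0.0562) lost the call without 4-week replicate 2, and Krt18 (0.0853) without 4-week replicate 1.

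Small RNA genes were measured by probe sets within their short transcripts or hairpins, which cannot tell the mature arms apart. Of 483 microRNA genes 9 rose (1.86%) and 2 fell (0.414%), smaller shares than the 4.04% and 4.67% of all genes. Most of the 483 lay at or under the guide, with 109 above it at 4 weeks and 111 in quiescent cells. Of the 9 that rose, 7 lay above it at 4 weeks. The smaller shares are thus largely counted over genes near background. Of 79 small nucleolar RNA genes 15 rose (19%) and 2 fell (2.53%). Of the 24 genes of both kinds that rose, 20 lay above the guide at 4 weeks, among them 13 of the 15 nucleolar ones. MicroRNAs pair with their targets through the seed, bases 2 to 8, shown in capitals for mature arms of 5 called genes, from RefSeq with positions in build GRCm38.p6. No seed is shared among them.
mmu-miR-23a-3p, chr8:84208563-84208583, plus strand: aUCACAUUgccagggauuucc
mmu-miR-27a-3p, chr8:84208727-84208747, plus strand: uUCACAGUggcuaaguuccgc
mmu-miR-28a-5p, chr16:24827868-24827889, plus strand: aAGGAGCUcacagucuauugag
mmu-miR-28a-3p, chr16:24827908-24827929, plus strand: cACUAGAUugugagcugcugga
mmu-miR-210-3p, chr7:141221407-141221428, minus strand: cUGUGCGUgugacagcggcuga
mmu-miR-302c-3p, chr3:127545406-127545427, plus strand: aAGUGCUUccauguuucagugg
The 3p arms of Mir23a and Mir27a start 164 bases apart, and both genes rose. Mir23a stood at 7.97 and 8.40, then 9.73 and 9.71 (1.54 ± 0.26, adjusted p = 0.00872), and Mir27a at 8.34 and 8.31, then 9.54 and 9.26 (1.07 ± 0.22, adjusted p = 0.0198). Mir28a, which lies in the gene of the LIM protein Lpp, rose from 4.55 and 5.49 to 6.82 and 6.71 (1.75 ± 0.30, adjusted p = 0.00882), and Lpp rose as given above. Mir210, known as a hypoxia-induced microRNA, fell from 8.27 and 8.26 to 7.44 and 7.50 (-0.79 ± 0.14, adjusted p = 0.0108). Mir302c stayed under the guide in both groups, at 3.27 and 2.85, then 4.38 and 4.17 (1.21 ± 0.17, adjusted p = 0.00369). Of the nucleolar RNAs, which guide the modification and cutting of ribosomal RNA, the U3 gene Rnu3a rose from 7.93 and 8.52 to 10.91 and 10.80 (2.63 ± 0.22, adjusted p = 0.000331) and Snord65 by 1.75 ± 0.20 (adjusted p = 0.00117), while Snord13 fell by 1.88 ± 0.36 (adjusted p = 0.0145). Mir23a (adjusted p = 0.0742 and 0.0647), Mir28a (0.0798 and 0.0606) and Mir210 (0.0893 and 0.067) fell short of the threshold without either 4-week array, and Snord13 (0.0643 and 0.127) without quiescent replicate 1 or 4-week replicate 1. Mir27a (adjusted p = 0.058 to 0.154) missed the threshold without quiescent replicate 1 or either 4-week array.

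Against cells taken after 2 weeks of CCl4, 6 genes were higher (0.0271%) and 13 lower (0.0586%) at 4 weeks. Of the 13 lower genes, 6 stand in the lists of Kupffer cell or injury macrophage markers. Vsig4 stood at 8.33 and 8.62 at 2 weeks, within 1 unit of its quiescent level, and at 5.52 and 4.58 at 4 weeks (-3.42 ± 0.33, adjusted p = 0.0321). C1qb, a complement subunit made by macrophages, went from 9.01 and 8.95 to 7.40 and 7.26 (-1.65 ± 0.18, adjusted p = 0.0321), and Csf1r from 7.63 and 7.69 to 6.53 and 6.53 (-1.13 ± 0.13, adjusted p = 0.0321). The list members Cd68 (-1.41 ± 0.16, adjusted p = 0.0333) and Ctss (-1.22 ± 0.14, adjusted p = 0.0321) were lower as well. Clec4a3 (-1.53 ± 0.17, adjusted p = 0.0321) and Clec12a (-1.93 ± 0.21, adjusted p = 0.0321), lectin receptor genes, and Gpr65 (-1.71 ± 0.19, adjusted p = 0.0321), a receptor gene, stand in no list here and were lower. Others had risen by 2 weeks. Mmp12 lay at 4.87 and 4.79 on the quiescent arrays, 8.11 and 8.23 at 2 weeks and 6.98 and 6.84 at 4 weeks (-1.26 ± 0.13, adjusted p = 0.0321), and Atp6v0d2, a proton pump subunit of osteoclasts and macrophages, at 3.21 and 3.17, 6.05 and 6.66 and 4.31 and 3.26 (-2.57 ± 0.32, adjusted p = 0.0344). Mcm6, a helicase subunit of DNA replication, peaked in the same way, at 4.90 and 5.10, 6.30 and 6.26 and 5.21 and 5.03 (-1.16 ± 0.14, adjusted p = 0.0344). Hpgds, a prostaglandin D synthase (-1.11 ± 0.14, adjusted p = 0.0344), and Nceh1, a cholesteryl ester hydrolase (-1.43 ± 0.17, adjusted p = 0.0344), were lower too. The number of calls depended on single arrays. Leaving out either quiescent array gave 15 higher and 70 lower genes, while leaving out either culture or either 2-week array gave 0 and 0, 4-week replicate 1 gave 0 and 2, and 4-week replicate 2 gave 0 and 0. In those fits of limma 1204 to 2188 genes had an unadjusted p under 0.05.

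Higher at 4 than at 2 weeks were Chst11, at 6.59 and 6.52 at 2 weeks (1.35 ± 0.18, adjusted p = 0.0429), and Serpinb9b, a granzyme inhibitor, which lay at 5.27 and 5.24 on the quiescent arrays, 5.15 and 5.39 at 2 weeks and 6.65 and 6.47 at 4 weeks (1.29 ± 0.16, adjusted p = 0.0344). The small RNA genes Rnu3a (1.96 ± 0.22, adjusted p = 0.0321), Mir302c (1.39 ± 0.17, adjusted p = 0.0344) and Mir1949 (1.29 ± 0.16, adjusted p = 0.0344) were higher, with Rabggtb, a subunit of the enzyme that prenylates Rab proteins (1.06 ± 0.14, adjusted p = 0.0429). Rabggtb lay under the guide on the quiescent arrays (3.13 and 3.10) and at 2 weeks (4.20 and 3.97), and reached 5.17 and 5.12 at 4 weeks. The values of Serpinb9b are from the brighter of its 2 probe sets. With the mean of each gene's probe sets, 5 genes were higher and 13 lower than at 2 weeks. Matrix and muscle genes were not among the 19. Acta2 stood at 11.95 and 11.92 at 2 weeks (0.01 ± 0.20, adjusted p = 0.998), Col1a1 at 10.64 and 11.19 (-0.47 ± 0.27, adjusted p = 0.743), Tnc at 10.80 and 10.46 (0.34 ± 0.25, adjusted p = 0.823) and Timp1 at 11.89 and 11.44 (0.22 ± 0.26, adjusted p = 0.902). Ccn2 stood at 10.77 and 10.31 at 2 weeks (0.81 ± 0.19, adjusted p = 0.206) and Inhba at 5.88 and 5.45 (1.43 ± 0.24, adjusted p = 0.103), with no call between the times. A missed threshold with 2 arrays does not show that the times are alike.

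**Figure D5:**
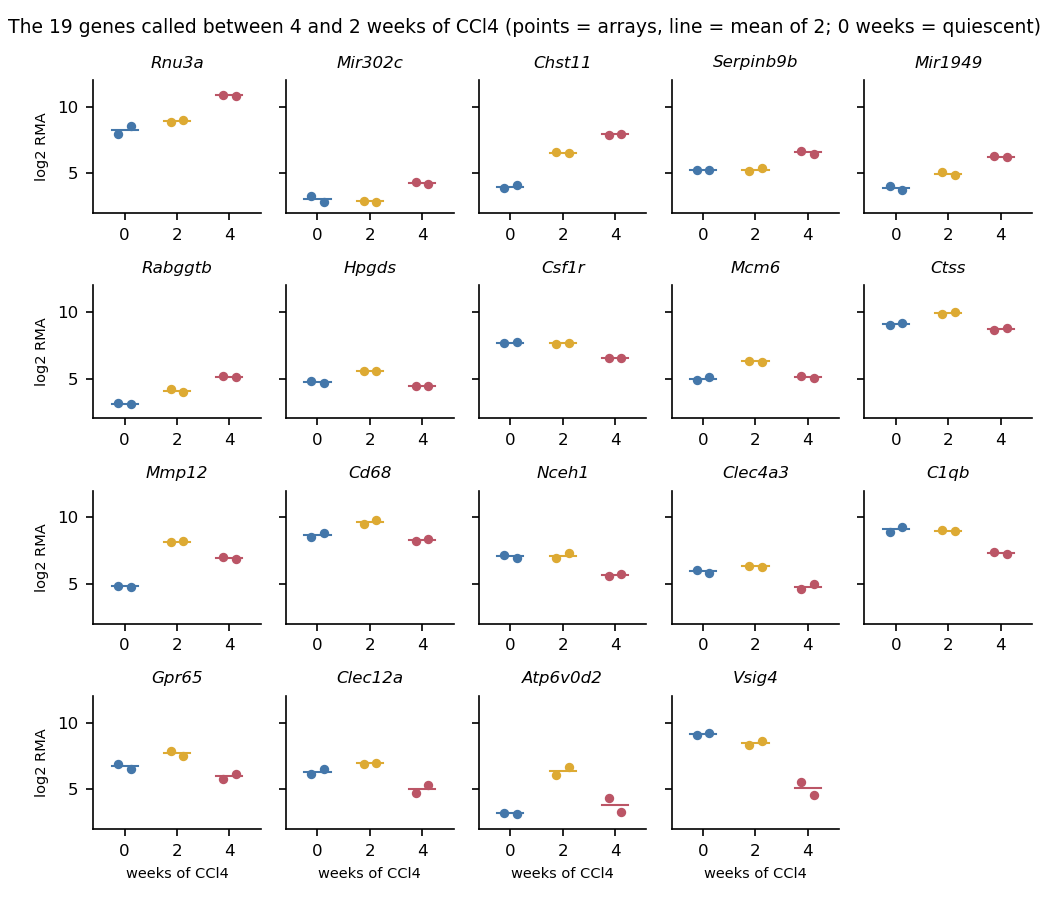
Levels (log2 RMA, y axis) of the 19 genes called between 4 and 2 weeks of CCl4, on the quiescent (0), 2-week and 4-week arrays (x axis), as points with lines at the mean of 2. Mmp12, Mcm6 and Atp6v0d2 peak at 2 weeks, while C1qb and Csf1r lie near their quiescent level at 2 weeks and lower at 4.

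Cells activated in the animal differed from cells activated on plastic at 1563 genes that were higher (7.05%) and 2257 that were lower (10.2%) after 4 weeks of CCl4 than after 10 days of culture. Of the 896 genes that rose at 4 weeks, 278 were also higher than in culture, 155 lower, and 463 without a call. Of the 1036 that fell, 199 were lower than in culture, 229 higher, and 608 without a call. The calls against culture numbered 859 and 1156 without 4-week replicate 1, 958 and 1287 without 4-week replicate 2 and 948 and 1395 without culture replicate 2. Transcripts of other liver cell types, and possibly valproic acid, set the cultures apart as well, and their effects cannot be told apart from that of plastic. Genes that rose after CCl4 and were at or below their quiescent level in culture included Sytl2, at 4.84 and 4.21 in culture (5.08 ± 0.23, adjusted p = 2.64e-06), and Plat, at 6.0 and 6.03 (4.74 ± 0.22, adjusted p = 2.99e-06). Col15a1 stood at 4.36 and 3.82 in culture (4.01 ± 0.19, adjusted p = 3.9e-06), Mmp19 at 6.40 and 6.53 (3.07 ± 0.17, adjusted p = 8.52e-06) and Ntrk3 at 4.93 and 4.71 (3.20 ± 0.23, adjusted p = 2.97e-05). Mmp2 stood at 7.12 and 6.55 in culture (4.52 ± 0.24, adjusted p = 6.27e-06), under its quiescent arrays. The microRNA gene Mir23a stood at 5.41 and 4.79 in culture (4.62 ± 0.26, adjusted p = 9.35e-06) and Mir27a at 5.93 and 5.22 (3.82 ± 0.22, adjusted p = 1.06e-05). Contractile genes differed from culture both ways. Cnn1 stood at 12.16 and 12.03 (-5.91 ± 0.21, adjusted p = 6.3e-07), Actg2 at 11.51 and 11.31 (-3.67 ± 0.35, adjusted p = 0.000158) and Acta2 at 12.71 and 12.69 (-0.75 ± 0.20, adjusted p = 0.0333). Of the 23 contractile genes 9 were lower and 6 higher after CCl4 than in culture. Of 29 mitosis genes 29 were lower after CCl4, and 21 of 26 quiescent markers were higher, Colec11 by 4.74 ± 0.25 (adjusted p = 6.27e-06). Yap1 did not differ past the threshold (0.13 ± 0.17, adjusted p = 0.717). Vgll3 was lower after CCl4 (-1.68 ± 0.25, adjusted p = 0.00196), as was Ankrd1 (-2.05 ± 0.53, adjusted p = 0.0278). Higher than in quiescent, 2-week and cultured cells alike were Mir302c, Rabggtb and Rnu3a, and lower than in all of them Nceh1 and Vsig4. Mir302c lay under the guide to background in every group, and Rabggtb in all but the 4-week cells (5.17 and 5.12). The values of Nceh1 are from the brighter of its 2 probe sets.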

How the data were processed

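Total RNA of each sample was amplified (Pico Ovation WTA V2), labelled and hybridised to Affymetrix arrays, per the labels' protocols. The authors deposited log2 RMA values. Per the submitters' processing notes they come from Expression Console, version not stated. The quantile step of RMA gives all arrays 1 distribution, so a shift of most genes together would not show. Of 41345 probe sets, 23521 carried 1 gene symbol, 1814 several and 16010 none in the platform annotation. For each of 22180 genes the probe set with the highest mean over the 8 arrays was used. limma 3.58.1 in R 4.3.3 was fitted to all 8 arrays in 4 groups (4 residual and 4.75 prior degrees of freedom), with Benjamini-Hochberg adjustment over all genes and calls at 0.05. It was tested on simulated data. The number of arrays limits the precision. The genes, lists and contrasts were chosen with earlier results of these data known. The rule for named genes took the 20 largest rises and the 20 largest falls among called genes whose arrays did not overlap, then in each list up to 8 called members a direction by adjusted p and called members against the list's main direction. It added members a reader would look for or with a role in the account, called or not, and genes called in the same direction against all 3 other groups. Alternatives were the 4 arrays alone, an intensity trend, robust fitting, a replicate block, other scalings, the mean of probe sets, a low-value filter, a 2-fold minimum and leaving out each array. Promoter and microRNA sequences are from RefSeq, build GRCm38.p6.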

Additional observations from a re-analysis of the deposited data

Results flagged for a closer look

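The genes whose 4-week level differed from their 2-week level by limma's test of that difference, adjusted over all genes, are collected here, since both groups share the quiescent arrays as controls. Higher at 4 weeks, on the log2 scale, were Rnu3a by 1.96, Mir302c by 1.39, Chst11 by 1.35, Serpinb9b by 1.29, Mir1949 by 1.29 and Rabggtb by 1.06. Lower at 4 weeks were Vsig4 (-3.42), Clec12a (-1.93), Gpr65 (-1.71), C1qb (-1.65), Clec4a3 (-1.53), Cd68 (-1.41), Mmp12 (-1.26), Ctss (-1.22) and Csf1r (-1.13). So were Atp6v0d2 (-2.57), Nceh1 (-1.43), Mcm6 (-1.16) and Hpgds (-1.11). In each of these 19 genes both 4-week arrays lay on the same side of both 2-week arrays. A call favours such a separation, and its share over all genes was not counted between these groups. Of the 896 rises over quiescent cells 6 were also higher than at 2 weeks, and of the 1036 falls 7 were also lower.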

How the results depend on the processing

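None of the 254 named genes past the threshold turned its direction under any alternative, while 31 of the named genes that did not pass took the other sign under at least 1. Without quiescent replicate 1 there were 15 of these, among them Lyve1 (0.33 in place of -1.01) and Actb (-0.02 in place of 0.24), and centring turned 6. Over all genes, the 4 arrays of the 2 groups fitted alone gave 552 rises and 653 falls in place of 896 and 1036, and at least a 2-fold change 410 and 542. An intensity trend, robust fitting, a second quantile normalisation, centring on the array median, the mean of probe sets and a filter on low values kept both counts within 1.5 times. Centring gave 1026 rises and 882 falls. Leaving out 1 array gave 317 to 912 rises and 335 to 1201 falls, 0 to 15 genes higher and 0 to 70 lower than at 2 weeks, and 859 to 1806 higher and 1156 to 2489 lower than in culture. Same-numbered arrays deviated from their group means together with correlations of -0.042 to 0.074. With 2 arrays a group these correlations cannot settle whether the replicate numbers pair the samples. With the replicate number as a replicate block 795 genes rose and 946 fell, and 2 were higher and 7 lower than at 2 weeks. With the block Ccn2, Ccr2, Cyp2e1, Gpr65, Nr1h4, Ptger4 and Tead1 missed the threshold, and after a second quantile normalisation Ccn2, Cyp2e1 and Gpr65 did. Centring raised Isg15 past it, with a change of 0.74. Of the 339 genes named 254 passed the threshold. Many of these missed it with either 4-week array left out, which leaves 1 array in that group. The cause of these shifts was not tested. With 2 arrays a group, an exact permutation test cannot give a p below 0.333. Changes between levels near or under 4.75 rest on signals close to background.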
